A study of Mus musculus with 30 samples.

Results

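The elastic fibre and microfibril genes described here are 10 genes listed by name: Eln, Fbn1, Fbn2, Fbln1, Fbln2, Fbln5, Mfap2, Mfap4, Mfap5 and Lox. They were picked for what their proteins do, but with earlier results of these data known. They are 10 of the 23109 genes or unmatched transcripts in the tables. Their messenger RNA was followed through adipogenesis in 8 RNA-seq libraries from brown preadipocytes, the precursors of heat-producing fat cells. The cells derive from the interscapular fat of C57BL/6J pups, newborn and with both copies of the glucocorticoid receptor gene floxed (GRf/f), and were immortalised with SV40T. Infection with retroviral Cre gave the GR KO cells, called Cre below, and infection with the retroviral vector gave the WT cells, called Vec. Both lines thus come from the same floxed, SV40T-immortalised cells, and both were infected with a retrovirus.

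Each line was sampled before induction (D0), after 4 hours of it (4h), on day 2 (D2) and on day 7 (D7). The induction mix held dexamethasone (2 µg/ml), IBMX (0.5 mM), indomethacin (0.125 mM), insulin (0.02 µM) and T3 (1 nM), and cells had been plated 4 days earlier. Dexamethasone activates the glucocorticoid receptor, while IBMX keeps cAMP high. Nothing in the sources used here gives the media between 4h and D7 or says whether a line was grown from 1 clone. There is 1 library per line and time, so the receptor deletion and any other difference between the lines cannot be told apart. No 4h library without the mix was analysed here. The 22 ChIP samples of the series were not analysed here.

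Elastic fibres let skin, lung and arteries recoil. Cells first lay down microfibrils built from the fibrillins FBN1 and FBN2, on which tropoelastin, the product of Eln, is deposited with the help of fibulins and is then cross-linked by lysyl oxidase (Lox). Microfibrils also bind and store latent TGF-beta complexes. In fat depots the fibroblast-like precursors are a main source of this matrix, and mature adipocytes are enclosed by a basement membrane mainly of other proteins.

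Promoter sequences were looked up in RefSeq's table for assembly GRCm38.p6, where 5 of the 10 genes gave a sequence that could be used here: Fbn1, Fbln1, Fbln2, Fbln5 and Mfap2. The 250 bases before the first listed start are shown for 3 genes with different courses through adipogenesis. Fbln5 (chr12:101819120-101819369, minus strand) had the deepest dip at D2 of these, Fbn1 (chr2:125506439-125506688, minus strand) a shallower dip, and Fbln1 (chr15:85205699-85205948, plus strand) no dip at D2. Each runs 5′ to 3′, and capitals mark the motif matches described after them.
Fbln5: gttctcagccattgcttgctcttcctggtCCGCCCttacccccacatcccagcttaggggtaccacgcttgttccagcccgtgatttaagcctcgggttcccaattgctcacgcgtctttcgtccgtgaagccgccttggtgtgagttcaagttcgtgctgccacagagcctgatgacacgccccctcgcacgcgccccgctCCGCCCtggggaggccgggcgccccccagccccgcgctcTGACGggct
Fbn1: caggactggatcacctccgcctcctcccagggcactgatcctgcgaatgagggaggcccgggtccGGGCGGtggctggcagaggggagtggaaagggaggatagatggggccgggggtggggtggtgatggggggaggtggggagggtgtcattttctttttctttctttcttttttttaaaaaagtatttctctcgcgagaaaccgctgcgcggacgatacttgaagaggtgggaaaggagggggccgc
Fbln1: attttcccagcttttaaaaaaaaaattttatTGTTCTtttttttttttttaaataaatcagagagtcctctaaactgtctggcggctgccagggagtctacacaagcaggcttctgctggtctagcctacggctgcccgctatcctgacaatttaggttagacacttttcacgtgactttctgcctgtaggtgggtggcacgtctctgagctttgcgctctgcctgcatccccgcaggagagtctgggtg

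Both strands were searched for 5 motifs. The full glucocorticoid response element, NGNACA and TGTNCN with any 3 bases between them, stood in none of these 3 stretches and in 0.387% of the 32851 listed promoters. Its 6-letter part AGAACA, which lies within many full elements, had 1 match, in Fbln1, where it reads on the other strand. It stood in 16.1% of all listed promoters. The C/EBP motif TTGCNNAA had no match here and stood in 9.56% of all. The cAMP response core TGACG matched at 1 place in Fbln5 and stood in 17.8% of all. The SP1 box GGGCGG matched at 2 places in Fbln5, both on the other strand, and at 1 place in Fbn1, and stood in 32.7% of all. Fbln1 and Fbln5 have 2 listed starts each, and the matches depend on which is taken. The 250 bases before the other start, not shown, held 0 AGAACA matches and 1 SP1 box in Fbln1. In Fbln5 they held 0 SP1 boxes and 1 TGACG match. A match describes letters and not a bound site.

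Nr3c1, the floxed gene, served as a check of the labels. It stood at 4.81, 4.04, 8.07 and 6.67 RPKM (reads scaled to transcript length and library depth) in the Cre libraries at D0, 4h, D2 and D7. The Vec libraries held 24.3, 12.9, 21.3 and 32.1 RPKM. Cre was thus at 19.8% to 37.8% of Vec, lower at every time. The libraries held 7.71 to 28.9 M reads, and Cre 4h was the shallowest. The precursor label was set beside markers. The 6 preadipocyte and fibroblast markers were above 1 RPKM in every library, while the 7 adipocyte markers summed to 1366 and 3864 RPKM in Cre and Vec at D7, against 27.9 and 27.6 RPKM at D0. As the 6 were above 1 RPKM at D7 too, that level does not set precursors apart. The 5 smooth muscle and myofibroblast markers summed to 686 and 785 RPKM in Cre and Vec at D0. Ucp1, the heat-producing protein of brown fat, was at 0.882 RPKM or less in all 8 libraries.

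The 10 genes differed widely in level per length, and 3 of them held most of the RNA. Fbn1, Fbln2 and Lox together made up 67.1% to 89.3% of the summed RPKM of the 10 genes in every library. Fbln2 ranked first at D0 and D2 in both lines and Lox first at D7 in both lines. Eln ranked last at D0, with 3.26 RPKM in Cre and 2.59 RPKM in Vec. The Lox level was 25.6 times that of Eln in Cre and 40.2 times in Vec at D7, against 118 and 151 times at D0. Among the fibrillins the Fbn1 level was 9.83 times that of Fbn2 in Cre and 18.0 times in Vec at D7, against 23.2 and 23.1 times at D0. These ratios set RPKM of 2 transcripts within a library side by side.

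**Figure D1:**
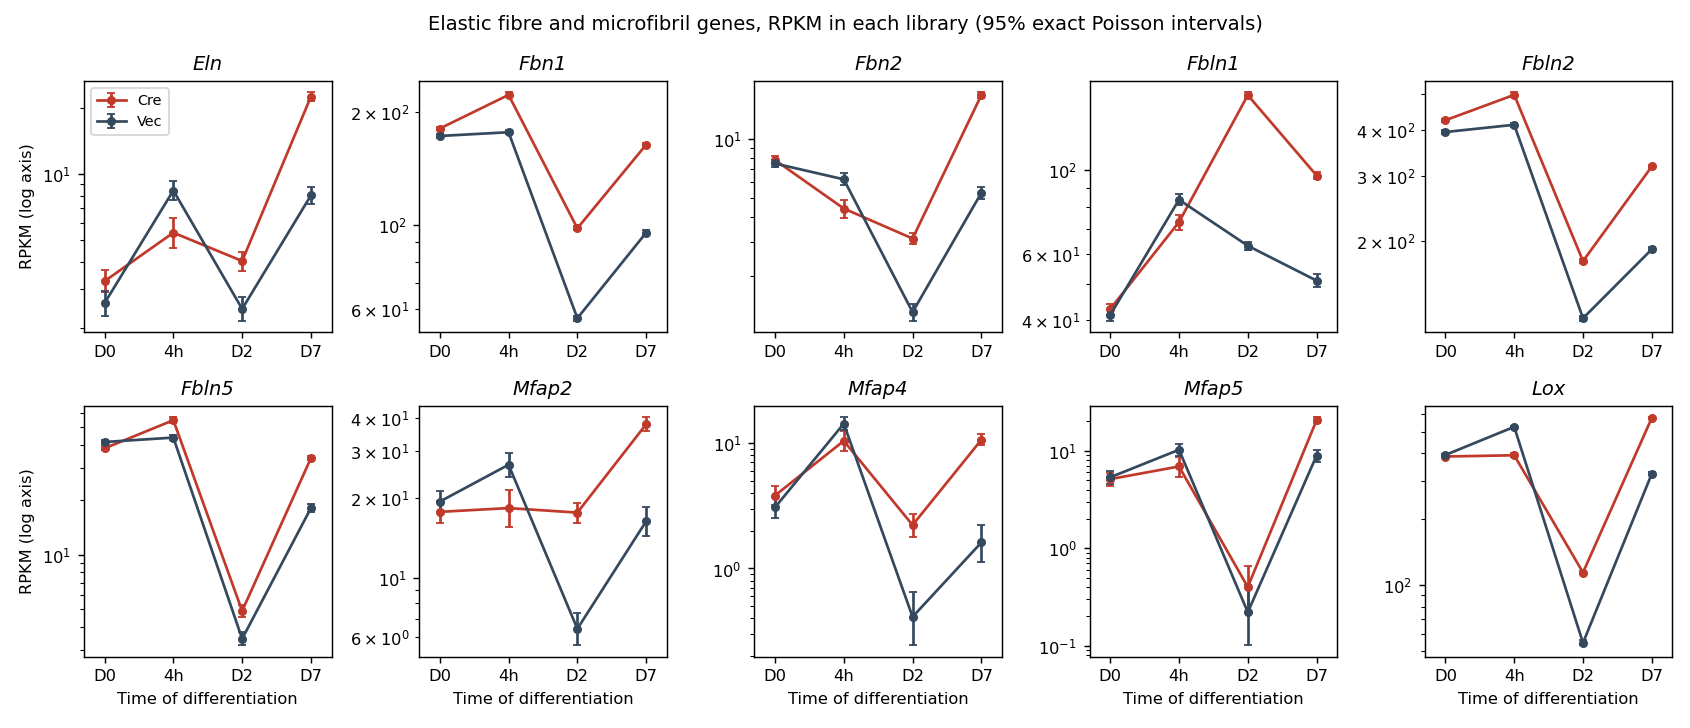
RPKM of each of the 10 genes (vertical, log axis, own scale per panel) at D0, 4h, D2 and D7 (horizontal, not to scale) in Cre and Vec, 1 library per point, with exact Poisson intervals at the 95% level. In 9 of the 10 panels the lowest of the 8 points is Vec D2, and Fbln1 is the exception.

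The question of the time course is how the genes stood at each time of adipogenesis relative to D0, over both lines. The main feature was a dip at D2. At D2, 6 of the 10 genes fell relative to D0 and none rose by edgeR's quasi-likelihood test with Benjamini-Hochberg adjustment at 0.05. Over all 12581 genes tested, 21% fell and 17.7% rose. The 6 were Fbn1, Fbn2, Fbln2, Fbln5, Mfap5 and Lox, covering both fibrillins, a pair of fibulins, a microfibril protein and the cross-linking enzyme. The median fitted log2 change of the 10 genes was -1.58, beside 0.02 over all genes tested. The test treats Cre and Vec as repeats of a time within an additive model. The error behind its p-values is thus the departure from additivity and not the spread between cultures. Marker levels moved at D2 too. Of 4 tested smooth muscle and myofibroblast markers 3 fell, and the 5 on that list summed to 64.0 and 27.4 RPKM in Cre and Vec at D2, against 686 and 785 RPKM at D0. Of 6 preadipocyte and fibroblast markers 3 fell, and of 6 tested adipocyte markers 5 rose. Their part in the result was not tested. In such bulk libraries fewer cells of a type and less RNA per cell cannot be told apart.

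Fbln5 encodes a fibulin that binds tropoelastin and integrins and is needed for elastic fibre assembly in mice. In Cre it measured 38.4, 54.8, 4.90 and 34.0 RPKM at D0, 4h, D2 and D7. Vec libraries held 41.6, 44.0, 3.44 and 18.0 RPKM. Both D2 libraries lie far below the other 6. The fitted log2 change at D2 was -3.33 ± 0.26 (SE; adjusted p = 0.0023, edgeR). Mfap5, also called MAGP-2, is a small protein attached to fibrillin microfibrils. It measured 5.12, 6.90, 0.401 and 20.6 RPKM in Cre at the same times. Vec gave 5.34, 10.2, 0.221 and 8.93 RPKM. Its D2 values rest on 15 reads in Cre and 9 reads in Vec, and its fitted change was -4.10 ± 0.56 (adjusted p = 0.0050, edgeR). The falls of Fbln5 and Mfap5 passed with any 1 of the 8 libraries left out.

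Lox encodes the copper enzyme that starts the cross-linking of elastin and collagen. It measured 386, 391, 114 and 578 RPKM in Cre at D0, 4h, D2 and D7. The Vec values were 392.1, 527, 54.7 and 322 RPKM. Its fall at D2 was -2.28 ± 0.42 on the log2 scale (adjusted p = 0.011, edgeR), and both D2 libraries lie below the other 6. Fbln2 encodes a large fibulin that binds fibrillin-1 and elastin. It measured 425, 498, 177 and 319 RPKM in Cre. Levels in Vec were 395, 413, 124 and 190 RPKM. Its fitted change at D2 was -1.50 ± 0.20 (adjusted p = 0.0051, edgeR).

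Fbn1 encodes the main fibrillin of adult microfibrils, mutated in Marfan syndrome. It measured 181, 222, 98.1 and 164 RPKM in Cre. In Vec it measured 173, 177, 56.5 and 95.5 RPKM. The fitted change at D2 was -1.27 ± 0.24 (adjusted p = 0.012, edgeR), and the Vec D7 value lies just below that of Cre D2. Fbn2 encodes the fibrillin that prevails in development. It measured 7.80, 4.42, 3.11 and 16.7 RPKM in Cre. Vec libraries held 7.48, 6.22, 1.32 and 5.31 RPKM. Its fitted change at D2 was -1.92 ± 0.55 (adjusted p = 0.038, edgeR). Each D2 library is the lowest of its line for both fibrillins.

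Counted in each line by differences of at least 1 in log2(RPKM + 1) from D0, 1 gene was higher and 5 were lower in Cre at D2 (5.04% and 7.59% of all genes). In Vec, 0 were higher and 8 were lower (8.9% and 12.1%), and 5 were lower with a pseudocount of 5. The calls of the joint test at D2 lean on single libraries. Calls over all genes tested also became fewer without any 1 of the D0 and D2 libraries. Without Vec D0 only Fbln5 and Mfap5 passed at D2, and without Cre D0 or Cre D2 Fbn2 did not. Without Vec D2 the falls of Fbln2, Fbln5 and Mfap5 passed, those of Fbn1, Fbn2 and Lox did not, and Fbln1 passed as higher.

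Fbln1 had another course. It encodes a fibulin found in elastic fibre cores, basement membranes and blood plasma. It measured 42.9, 72.9, 158 and 96.9 RPKM in Cre at D0, 4h, D2 and D7. Vec gave 41.3, 83.6, 63.1 and 51.0 RPKM. The highest library was D2 in Cre and 4h in Vec, and D0 was the lowest in both lines. The fitted change at D2 was 1.27 ± 0.41 (adjusted p = 0.055, edgeR), which did not pass. It passed with limma on log2(RPKM + 1) (adjusted p = 0.045) but not with limma on log2(RPKM + 5) (adjusted p = 0.054). It also passed with DESeq2 (adjusted p = 0.0070), with no filter on low values (adjusted p = 0.036, edgeR) and without Cre 4h, Vec 4h or Vec D2 (adjusted p = 0.044, 0.044 and 0.043, edgeR). Fbln1 was the second most abundant of the 10 per length at D2 in both lines.

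The other 3 genes did not pass at D2. Eln encodes tropoelastin, the elastic core protein. It measured 3.26, 5.42, 4.03 and 22.6 RPKM in Cre at D0, 4h, D2 and D7. Levels in Vec were 2.59, 8.43, 2.44 and 8.02 RPKM. D2 was close to D0 in both lines, with a fitted log2 change of 0.09 ± 0.48. Mfap2, or MAGP-1, is a microfibril protein that binds fibrillins and active TGF-beta. It measured 17.7, 18.3, 17.6 and 37.8 RPKM in Cre, so D2 stood level with D0 there. In Vec it measured 19.3, 26.6, 6.42 and 16.3 RPKM, with D2 the lowest. The fitted change was -0.76 ± 0.53. Mfap4 encodes a glycoprotein of elastic fibres that binds integrins. It measured 3.81, 10.4, 2.22 and 10.6 RPKM in Cre. Vec libraries held 3.07, 14.2, 0.412 and 1.61 RPKM. The fitted change at D2 was -1.65 ± 0.84 (adjusted p = 0.17, edgeR).

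At 4h none of the 10 passed by edgeR, where 25.3% of all genes tested did (12.2% higher and 13.1% lower). Without adjustment 3 had p under 0.05 by edgeR, beside 5239 of the 12581 genes tested. Over all genes, limma on log2(RPKM + 1) called 1091 higher and 2028 lower, and DESeq2 called 1782 higher and 1877 lower. Of the 10, limma called 0, and DESeq2 called 3 as higher: Eln, Fbln1 and Mfap4. Their fitted edgeR changes were 1.45 ± 0.49, 1.03 ± 0.40 and 2.11 ± 0.80, with adjusted p of 0.079, 0.11 and 0.10. Without Cre 4h, Eln passed (adjusted p = 0.031, edgeR). Mfap4 had the largest ratio at 4h among the 10, with 2.72 times its D0 level in Cre and 4.64 times in Vec. By size, 1 of the 10 was higher in Cre and 0 were lower at 4h (3.67% and 3.69% of all genes). In Vec, 2 were higher and 0 lower (5.52% and 8.04%). With a pseudocount of 5 these counts of higher genes were 0 and 1. Between 4h and D2 the direction was down: 6 of the 10 were lower at D2, against 18% of all genes tested. The 6 were Fbn1, Fbln2, Fbln5, Mfap4, Mfap5 and Lox, with Mfap4 at -3.76 ± 0.88 (adjusted p = 0.025, edgeR). Without Vec 4h or without Vec D2 the count was 4, since Mfap4 lost its call in both cases, Fbn1 in the first and Lox in the second. Without Cre D2 Mfap4 lost its call too. This comparison, that of D2 with D0 and that of D7 with D2 use the same D2 libraries, so their counts are not independent.

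The dip was followed by a rise. At D7, 7 of the 10 rose relative to D2 and none fell, while 15.4% of all genes tested rose. They were Eln, Fbn1, Fbn2, Fbln2, Fbln5, Mfap5 and Lox. Eln was among them without having dipped, as its D2 level was close to D0. Fbn1, Fbln2 and Fbln5 still stood below D0 at D7 in both lines. Their ratios to D0 were 0.750 to 0.906 in Cre and 0.433 to 0.553 in Vec. Mfap5 was at 51.3 times its D2 level in Cre and 40.4 times in Vec, with a fitted log2 change of 5.65 ± 0.56 (adjusted p = 0.0050, edgeR). Fbln5 was 6.94-fold and 5.24-fold higher in Cre and Vec (fitted change 2.74 ± 0.26, adjusted p = 0.0045). Lox was 5.06-fold and 5.90-fold higher (2.54 ± 0.43, adjusted p = 0.013). Fbn1 and Fbln2 changed least, both by a fitted 0.87 (adjusted p = 0.046 and 0.030, edgeR). Fbln5 and Mfap5 passed with any 1 library left out. The other 5 lost their calls without Vec D2 or without Cre D7, and Fbn1 lost its call without any 1 of the 8 libraries. The count was 3 without Cre D0 or Cre D2, 4 without Vec D0 and 5 without Vec D7. With the genotype term left out it was 5, since Fbn1 and Fbln2 did not pass (adjusted p = 0.12 and 0.072, edgeR), and with limma on log2(RPKM + 5) Fbn2 did not (adjusted p = 0.055).

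Relative to D0, only Eln passed at D7. It was 6.94-fold higher in Cre and 3.10-fold higher in Vec, with a fitted log2 change of 2.40 ± 0.49 (adjusted p = 0.044, edgeR). Over all genes tested 5.68% were higher and 2.42% lower at D7. The call was lost without any 1 of the D0, D2 and D7 libraries, with adjusted p of 0.062 to 0.31 (edgeR), and was held without either 4h library. DESeq2 called Eln and Mfap5 as higher and Fbln2 as lower, beside 1246 genes higher and 857 lower over all genes. The lines are also given apart, without a test of the difference between them. In Cre, 6 of the 10 were at least 1 higher at D7 than at D0 on the log2(RPKM + 1) scale and 0 were lower by that much (4.53% and 0.701% of all genes). In Vec, 1 was higher and 2 were lower by at least 1 (8.55% and 4.62%). The 6 in Cre were Eln, Fbn2, Fbln1, Mfap2, Mfap4 and Mfap5, of which 3 (Eln, Fbln1 and Mfap5) kept the size with a pseudocount of 5 in place of 1. In Vec, Eln was higher, and Fbln2 and Fbln5 were lower; Eln did not keep the size with that pseudocount, nor Fbln2 with TMM scaling.

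**Figure D2:**
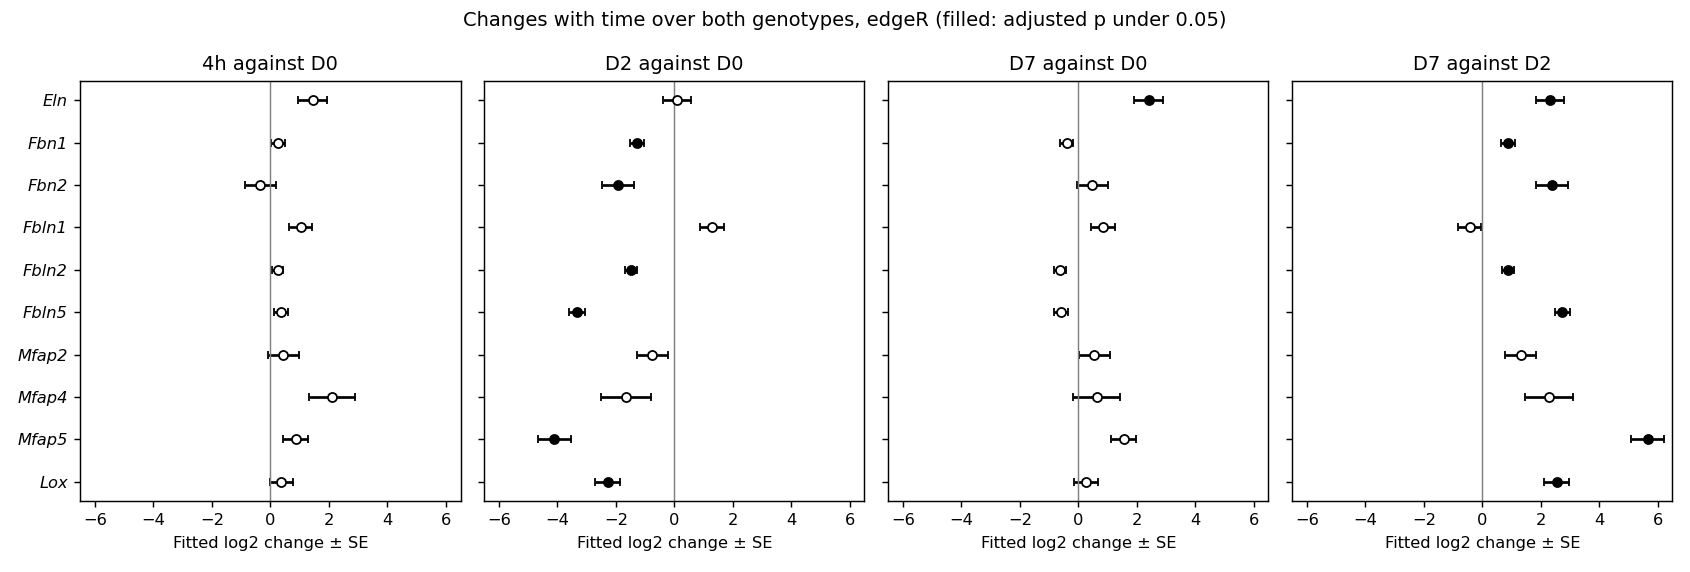
Fitted log2 change of each gene (horizontal, ± SE) over both lines for 4h, D2 and D7 against D0 and for D7 against D2, from edgeR's additive model of time and genotype. Filled points passed at an adjusted p of 0.05: none at 4h, 6 on the lower side at D2, Eln at D7, and 7 on the higher side from D2 to D7.

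The other question of the design is what differed between Cre and Vec at a given time. With 1 library on each side, no test was run at a single time, and sizes are given with exact 95% intervals that cover counting error only. Ratios are of RPKM, and a gene counts as higher or lower when log2(RPKM + 1) differs by at least 1. In brief, no gene reached that size at D0 or 4h, 4 of the 9 counted at D2 and 5 of the 10 at D7 were higher in Cre, and none was lower.

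At D0, 0 of the 10 genes differed by that much, while 0.158% of all genes were higher and 0.275% lower. Ratios ran from 0.915 for Mfap2 to 1.26 for Eln. At 4h again 0 of the 10 differed by that much (1.65% of all genes were higher and 2.59% lower). At that time 7 of the 10 were lower in Cre, while 66.1% of all genes were above 0. The median difference of the 10 was -0.42 on the log2(RPKM + 1) scale, beside 0.11 over all genes. These RPKM were not rescaled. TMM would shift Vec 4h by 0.12 and Cre 4h by -0.0068 on the log2 scale, which would lower every Cre to Vec ratio at 4h. Eln was lowest relative to Vec, at 0.643 times (0.531 to 0.775), and Lox stood at 0.742 times (0.725 to 0.759). Fbn1, Fbln5 and Fbln2 were above Vec, at 1.26, 1.25 and 1.20 times.

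At D2, 4 of the 9 genes with at least 1 RPKM in either library were higher in Cre and 0 were lower, with 2.55% of all genes higher and 1.54% lower. All 9 lay above 0, against 44.0% of all genes, with a median of 0.83 beside -0.04. The 4 were Mfap2 at 2.74 times Vec (2.32 to 3.24), Fbln1 at 2.51 times (2.43 to 2.59), Lox at 2.09 times (2.02 to 2.16) and Mfap4 at 5.38 times (3.22 to 9.49). Just under the size were Fbn2 (0.83) and Fbn1 (0.78), at 2.37 and 1.74 times. Mfap5, under 1 RPKM in both, had a ratio of 1.81 with an interval of 0.744 to 4.70, so a difference was not detectable at this depth. With a pseudocount of 5 in place of 1, Fbln1 alone kept the size.

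At D7, 5 of the 10 were higher in Cre and 0 lower, with 1.39% of all genes higher and 3.12% lower. All 10 lay above 0, against 53.5% of all genes, with a median of 1.02 beside 0.03. Mfap4 had the largest ratio of the 10, 10.6 RPKM in Cre against 1.61 RPKM in Vec, or 6.57 times (4.69 to 9.47). Fbn2 followed at 3.14 times (2.92 to 3.38), Eln at 2.82 times (2.55 to 3.13), Mfap2 at 2.32 times (2.02 to 2.66) and Mfap5 at 2.31 times (1.96 to 2.72). The other 5 were also above Vec. Their ratios were 1.90 for Fbln1, 1.88 for Fbln5, 1.79 for Lox, 1.72 for Fbn1 and 1.68 for Fbln2. At D7 the abundant Fbn1, Fbln2 and Lox differed less between the lines than the scarcer Eln, Fbn2 and Mfap4, while Fbln5, also scarcer, was near Lox. This order did not hold at D2, where Lox stood at 2.09 times Vec and Eln at 1.65 times. Summed over the 10 genes, RPKM was 1300 in Cre and 717 in Vec at D7, and 580 and 312 at D2. These genes took 0.600% of all reads in Cre D7 and 0.335% in Vec D7.

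**Figure D3:**
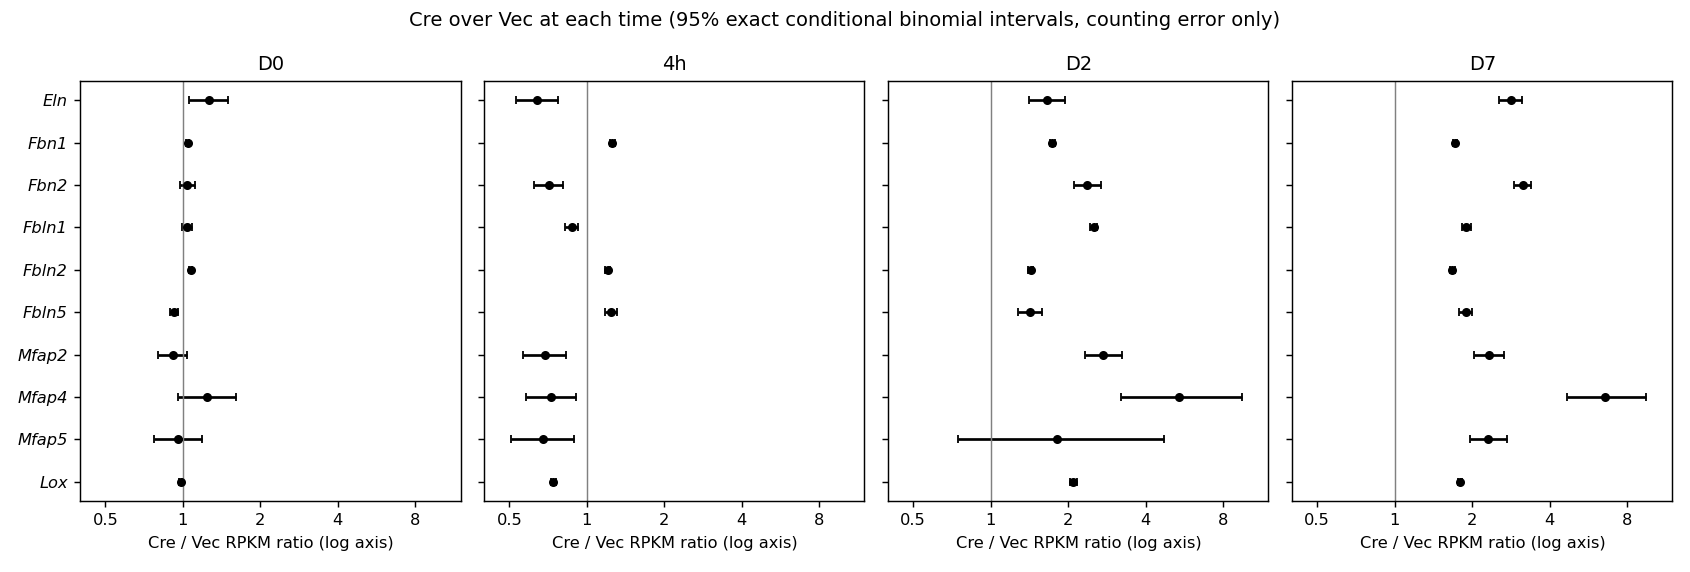
Ratio of Cre RPKM to Vec RPKM for each gene (horizontal, log axis) at D0, 4h, D2 and D7, with exact conditional binomial intervals at the 95% level for counting error. All 10 points are right of 1 at D2 and at D7, and only the D2 interval of Mfap5 reaches below 1 at those times.

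Marker levels were also set side by side between the lines. The 7 adipocyte markers summed to 1366 RPKM in Cre and 3864 RPKM in Vec at D7, where 6 of 6 counted were lower in Cre by the size used. At D2 their sums were 1423 and 1502 RPKM, with 1 of 5 counted higher in Cre and 0 lower. The 6 preadipocyte and fibroblast markers summed to 2567 RPKM in Cre and 1377 RPKM in Vec at D7, and to 1410 and 664 RPKM at D2. Col1a1 alone gave 1521 and 796 RPKM of the D7 sums. By size, 1 of the 6 was higher in Cre at D2 and 1 of the 6 at D7, and 0 were lower. Over all genes, 2.55% were higher and 1.54% lower at D2, and 1.39% and 3.12% at D7. The 5 smooth muscle and myofibroblast markers summed to 704 and 512 RPKM in Cre and Vec at D7, and to 64.0 and 27.4 RPKM at D2. Their part in the difference was not tested. Markers of skeletal muscle summed to 4.61 to 26.5 RPKM over the 8 libraries, chondrocyte markers to 3.56 to 16.6, endothelial markers to 0.296 to 3.18, mesothelial markers to 0.0264 to 0.582 and macrophage markers to 0.0894 to 0.329. Adgre1, a defining macrophage marker, was listed at 0 in 7 libraries and at 0.0203 RPKM in Vec D7.

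**Figure D4:**
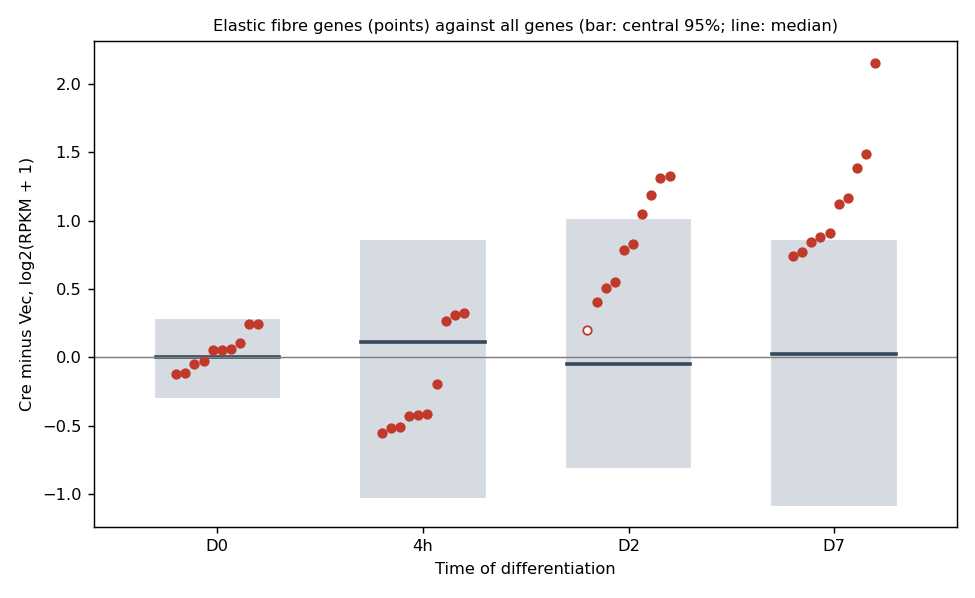
Cre minus Vec difference in log2(RPKM + 1) at each time for the 10 genes (points; open, Mfap5 under 1 RPKM at D2) and for all genes counted at that time (bar for the central 95%, line at the median). The points straddle the median at D0, lie mostly below it at 4h, and lie above it at D2 and D7.

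Over all 4 times together, none of the 10 genes passed for Cre against Vec by edgeR, and neither did any of the 12581 genes tested (0%). Without adjustment, 2 of the 10 (Fbn1 and Fbln2) and 1501 of all genes had p under 0.05. Adjusted calls among the 10 were 0 with limma and 0 with DESeq2. All 10 fitted changes were positive, with a median of 0.47 beside -0.01 over all genes tested. Fbn1 was at 0.46 ± 0.17 (adjusted p = 0.41, edgeR). The fit estimates 1 shift common to the 4 times, and whether the shift differed between times was not tested.

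Other genes of the pathway, taken from lists of known roles, also moved at D2. Of 15 tested genes for fibre and microfibril assembly, 1 rose and 7 fell at D2 relative to D0 by edgeR. Over all genes tested, 17.7% rose and 21% fell. Efemp2, Fbln7, Ltbp1, Ltbp2, Emilin1, Adamtsl4 and Fn1 fell, with fitted log2 changes of -2.04 (Ltbp2) to -0.66 (Adamtsl4). Efemp2 encodes fibulin-4, which brings Lox to elastin, and the Ltbp genes encode latent TGF-beta binding proteins. Vcan, the proteoglycan versican, rose by 1.02 ± 0.28. Of 8 tested genes for cross-linking and its activation, 4 fell: the lysyl oxidase relatives Loxl2 (-1.81), Loxl3 (-1.39) and Loxl4 (-2.56), and Pcolce (-0.91), an enhancer of procollagen processing. None of the 8 rose.

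Of 10 tested genes for cell-surface receptors of elastic fibres, 6 fell and none rose at D2 (21% and 17.7% of all genes tested). They were the integrin genes Itgav, Itgb1, Itgb5, Itgb8 and Itga8, and Ctsa of the elastin-binding receptor complex, with changes of -3.13 (Itgb8) to -0.93 (Itgb5). Of 7 tested elastin-degrading enzymes and inhibitors, 5 fell: the proteases Mmp14 and Ctsk and the inhibitors Timp1, Timp2 and Timp3, with changes of -2.51 (Timp3) to -1.16 (Timp1). Of 9 genes of TGF-beta signalling, 2 rose and 5 fell, the rises being near the share over all genes. The ligand Tgfb2 (1.58 ± 0.21) and the co-receptor Tgfbr3 (1.39 ± 0.34) rose. The ligands Tgfb1 and Tgfb3 and the targets Ccn2, Skil and Smad7 fell, with changes of -4.44 (Ccn2) to -0.79 (Tgfb1). The medians of the 5 lists at D2 were -0.66, -0.89, -0.97, -1.19 and -0.79, in the order given, beside 0.02 over all genes.

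At D7 few of these genes differed from D0 by edgeR, where 5.68% of all genes tested were higher and 2.42% lower. Fbln7, a fibulin relative, rose by 2.37 ± 0.37 (adjusted p = 0.026), and Efemp1, or fibulin-3, fell by 0.89 ± 0.18 (adjusted p = 0.045). In the cross-linking list Loxl2, Loxl4 and Tll1 fell, with changes of -1.23, -0.85 and -0.99. None passed in the receptor, protease or TGF-beta lists.

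Between Cre and Vec the assembly genes went both ways at D2. Of 14 counted, Ltbp2 (1.65) and Efemp2 (1.01) were higher in Cre and Ltbp4 (-1.31), Adamtsl2 (-1.27) and Vcan (-1.04) lower, as differences in log2(RPKM + 1). Mmp14 (1.35), Timp1 (1.21) and Timp3 (1.52), 3 of 7 in their list, and Ccn2 (1.03), 1 of 9, were higher. No cross-linking or receptor gene reached the size at D2, where 2.55% of all genes were higher and 1.54% lower. At D7 Fbln7 (1.06, 1 of 14), Itga8 (1.40, 1 of 9), and Ctsk (1.18) and Timp3 (1.00), 2 of 8 in their list, were higher in Cre and none was lower. Over all genes, 1.39% were higher and 3.12% lower at D7.

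The genes whose course was most like that of Eln, Fbn1 and Lox were ranked by Pearson r of log2(RPKM + 1) over the 8 libraries. The ranking covered 2926 tested genes with an SD of at least 0.5 over the libraries. It left out the 10 genes themselves, unmatched transcripts, and symbols of uncharacterised or non-coding loci. The libraries share 2 lines and their depth, so r is only a description. Nearest to Eln were Adamtsl1 (0.94), Fbln7 (0.93) and Scg2 (0.93). Nearest to Fbn1 among them were Timp2, Tspan6 and Gpx7, all at 0.98. Nearest to Lox were Timp3 (0.99), Ogn (0.98) and P4ha3 (0.98). Among the 10 genes themselves the closest pair was Fbn1 and Fbln2 (0.98), while Fbln1 had r of -0.38 to 0.37 with the other 9.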

How the data were processed

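The authors deposited 1 table per RNA library, giving the read count and the RPKM of each RefSeq transcript, per the file headers. The submitters' processing notes name CASAVA 1.8.2, SICER and mm9; how RNA reads were aligned and counted was not given in the sources used here. Read count over RPKM gave each library's total, used as its depth (7.71 to 28.9 M reads). Of 29082 accessions, 28436 matched a symbol in RefSeq's GRCm38.p6 table. Where a gene had several accessions, that with most reads in all was used; Fbln2 and Mfap2 have 2 accessions each, which share reads.

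Genes with at least 1 RPKM in at least 2 libraries (12581) were tested on the deposited read counts with edgeR 4.0.16 (R 4.3.3; TMM scaling, quasi-likelihood, time plus genotype, 3 residual degrees of freedom, Benjamini-Hochberg over all genes tested). All 10 genes passed this filter. At a single time, log2(RPKM + 1) differences of at least 1 were counted among genes with at least 1 RPKM in either library. The deposited RPKM values were not rescaled; TMM would shift Vec 4h by 0.12 and Vec D7 by 0.081 on the log2 scale. Intervals cover counting error only, since reads are not independent molecules. Alternatives were limma 3.58.1, DESeq2 1.42.0, other filters, scalings, pseudocounts and accession sums, a fit without the genotype or time term, and each library left out. The fit was checked on simulated data. Python 3.11.15, pandas 2.3.3 and scipy 1.17.1 were used.

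All 10 genes are named, with every listed pathway gene that passed at D2 or D7 or reached the size between Cre and Vec at those times, and the 3 genes nearest in course to Eln, Fbn1 and Lox; 1 listed gene is not reported here and enters no count. The 10 genes and the lists were chosen with earlier results of these data known.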

Additional observations from a re-analysis of the deposited data

Results flagged for a closer look

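Between D0 and D7, 4 of the 10 genes went opposite ways in the 2 lines, each beyond its 95% counting interval in the RPKM as deposited. The difference between the lines was not tested. Fbn2 at D7 stood at 2.14 times its D0 level in Cre (2.03 to 2.26) and at 0.710 times in Vec (0.654 to 0.770), a gap of 1.43 between the log2(RPKM + 1) differences. Mfap2 stood at 2.14 times in Cre (1.91 to 2.39) and 0.844 times in Vec (0.724 to 0.981), a gap of 1.29. With TMM scaling the Vec ratio of Mfap2 was 0.917 (0.787 to 1.07), an interval that includes 1, while the intervals of the other 3 stayed on their sides of 1. Mfap4 stood at 2.78 times in Cre (2.28 to 3.40) and 0.526 times in Vec (0.352 to 0.769), a gap of 1.91, the Vec D7 value resting on 37 reads. Lox stood at 1.499 times in Cre (1.48 to 1.52) and 0.822 times in Vec (0.807 to 0.837), a gap of 0.87.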

How the results depend on the processing

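No pairing beyond the terms of the fit was possible, because each line and time has 1 library and no replicate block exists. The additive fit already compares the times within each line and the lines within each time. Among the counts of the 10 genes, leaving out 1 library at a time gave 0 to 1 at 4h against D0, 2 to 7 at D2 against D0, 0 to 1 at D7 against D0, 4 to 8 at D2 against 4h, 2 to 6 at D7 against D2, and 0 throughout for Cre against Vec over all times; an arm left with 1 library is assumed to vary like the others. In the tests of time, calls over all genes also became fewer without a library of either time compared, except at D7 against D0 without Cre D7. DESeq2 gave 3 at 4h against D0 and 3 at D7 against D0. The D7 count was 0 with a filter at an RPKM of 5, with limma on log2(RPKM + 5) and with the genotype term left out. With a pseudocount of 5, the count between Cre and Vec at D2 was 1. The same pseudocount for differences from D0, chosen after seeing the data, gave 0 at 4h and 3 at D7 in Cre, and 1 at 4h and 5 at D2 in Vec. Other scalings left the Cre against Vec counts at 4 (D2) and 5 (D7); for differences from D0, chosen after seeing the data, they gave 3 at 4h and 2 at D7 in Vec and the counts given in the report elsewhere. Fbn2 at D2 against D0 did not pass with limma on log2(RPKM + 5) (adjusted p = 0.086) or with the genotype term left out (adjusted p = 0.059). No called gene changed sign under any setting run. Uncalled log2 changes that turned sign without 1 library were, at 4h against D0, Fbn2 (0.08 without Vec D0, 0.28 without Cre 4h; range over the libraries left out -1.31 to 0.28), Mfap2 (-0.47 without Vec 4h; to 1.03) and Lox (-0.30 without Vec 4h; to 0.87). At D2 against D0 it was Eln (-0.016 without Cre D0, -0.041 without Cre D2; to 0.30). At D7 against D0 they were Fbn2 (-0.29 to 1.09), Mfap4 (-0.71 to 1.46) and Lox (-0.071 to 0.56), negative without Cre D7. Fbln1 turned at D2 against 4h (-0.29 without Cre 4h, -0.32 without Cre D2; to 0.80) and at D7 against D2 (0.17 without Cre D2; from -0.95). Mfap5 turned for Cre against Vec over all times (-0.17 without Cre D7, -0.18 without Vec D7; to 0.61). In each of these the cause was not tested beyond the library left out. Depth limits Mfap5 and Mfap4 most, with 9 and 18 reads in Vec D2.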

Other observations

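Within the cross-linking list, Tll1, a protease of the family that trims the lysyl oxidase precursor, measured 3.65, 43.6, 2.84 and 1.81 RPKM in Cre at D0, 4h, D2 and D7. Vec gave 3.601, 31.5, 3.82 and 1.60 RPKM. Its fitted rise at 4h was 3.46 ± 0.20 on the log2 scale (adjusted p = 0.0040, edgeR), the only call of 8 genes tested in that list at 4h. Over all genes tested, 12.2% rose and 13.1% fell at 4h.

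Adamtsl2, which encodes a secreted protein that binds fibrillin-1 and latent TGF-beta binding protein, measured 0.102, 0.680, 0.105 and 0.300 RPKM in Cre at the same times. Levels in Vec were 0.197, 8.50, 1.66 and 0.142 RPKM. It was the only assembly gene of 15 counted to differ between Cre and Vec by the size used at 4h, with a log2(RPKM + 1) difference of -2.50, and the difference was not tested. Over all genes, 1.65% were higher and 2.59% lower in Cre at 4h. Tll1 and Adamtsl2 were chosen here after their values at 4h were seen.

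Of 9 TGF-beta genes, 5 rose and none fell at 4h by edgeR, where 12.2% of all genes tested rose and 13.1% fell. The receptor Tgfbr1 (1.35 ± 0.26, adjusted p = 0.020) and the inhibitor Smad7 (1.61 ± 0.20, adjusted p = 0.0085) were among the 5, and both were named after their values were seen.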
